A study of Mus musculus with 7 samples.

Results

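The genes described here were 10 immediate-early genes, *Fos*, *Fosb*, *Jun*, *Junb*, *Egr1*, *Egr2*, *Egr3*, *Ier2*, *Nr4a1* and *Dusp1*, out of 55401 genes in the table of raw counts. They were taken from a list of names, and each was found through the GENCODE vM21 symbol of its gene identifier. All 10 passed the filter on low counts and were among the 17465 genes tested.

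RNA-seq was performed on lung tissue (the right lobes) of male C57BL/6 mice that were 6 to 8 weeks old, with 1 library per mouse. Every mouse had received bleomycin, an antibiotic that injures the lung and is followed by fibrosis, and lungs without bleomycin were not analysed here. On day 7 the mice were randomised to the BLM group (n = 4) or the BLM+HBO group (n = 3). HBO, or hyperbaric oxygen, is pure oxygen breathed under pressure, and it was given at 2.5 ATA for 90 min in each of 14 daily exposures, before the lungs were taken on day 21. The sample records place the BLM mice in the chamber without pressurised oxygen, whereas the study's methods call them untreated, so time in the chamber may also differ between the groups. Mice that lost little weight after bleomycin had been left out of the model, per the study's methods. The comparison therefore asks how repeated HBO, given to an already injured lung, relates to the level of each gene.

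The libraries held between 18157161 and 26365969 counts, and the members' own counts ran from 127 for *Egr3* in BLM 2 to 11396 for *Dusp1* in BLM+HBO 1. Levels are given as CPM, each count scaled to a common library size with TMM factors, in the order BLM 1 to 4 and then BLM+HBO 1 to 3. As a check of the lung label, none of the 6 alveolar type 2 cell markers was at 0, and their summed level was between 8745 and 16004 CPM in BLM and between 11109 and 27489 CPM in BLM+HBO. In bulk tissue such as this, fewer cells of a type and less RNA per cell cannot be told apart.

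Immediate-early genes are transcribed within minutes of a signal, without the need for new protein, and their transcripts are usually short-lived. Growth factors, cytokines, stretch, stress and cAMP reach them through kinases that act on factors already bound to their promoters, among them SRF with its ETS-family partners at the CArG box and CREB at the cAMP response element (CRE). Many of the products are transcription factors that in turn switch on later genes, including genes of matrix, inflammation and repair in the lung, and others are phosphatases or feedback proteins that end the signal.

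The promoters of the 2 members that passed the study's thresholds (*Egr2* and *Nr4a1*), of *Junb*, whose levels did not overlap between groups, and of *Fos* and *Dusp1*, which differed widely between mice, are shown to place these elements. RefSeq windows (GRCm38.p6) were held for 7 of the 10 members, and *Egr1*, *Egr3* and *Ier2* were not among them. The sequences run 5′ to 3′ up to the base before the RefSeq start site, except that of *Dusp1*, which ends 47 bases earlier where an annotated exon begins. Capitals mark the CRE (TGACGTCA), its core (TGACG), the CArG box, the EGR motif (GCGNGGGCG) and the TATA box (TATAAA), on either strand, and a core inside a CRE counts as both. No window of a member held the AP-1 motif (TGANTCA).
Fos (chr12:85473640-85473889, plus strand): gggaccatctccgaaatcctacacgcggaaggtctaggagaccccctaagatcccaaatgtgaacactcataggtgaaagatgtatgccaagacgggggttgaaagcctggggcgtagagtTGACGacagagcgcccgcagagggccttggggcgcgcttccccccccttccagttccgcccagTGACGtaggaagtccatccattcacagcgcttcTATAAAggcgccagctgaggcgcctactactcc
Junb (chr8:84978749-84978998, minus strand): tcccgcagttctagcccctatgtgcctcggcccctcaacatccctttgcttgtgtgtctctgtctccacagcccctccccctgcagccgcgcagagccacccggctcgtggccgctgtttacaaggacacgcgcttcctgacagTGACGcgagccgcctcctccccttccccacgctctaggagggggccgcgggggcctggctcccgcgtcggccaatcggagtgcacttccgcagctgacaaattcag
Egr2 (chr10:67537619-67537868, plus strand): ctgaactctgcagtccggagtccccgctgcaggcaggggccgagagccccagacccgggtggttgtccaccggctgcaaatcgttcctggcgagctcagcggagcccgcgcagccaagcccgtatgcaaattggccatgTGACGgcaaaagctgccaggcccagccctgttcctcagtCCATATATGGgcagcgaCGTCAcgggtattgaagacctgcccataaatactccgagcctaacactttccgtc
Nr4a1 (chr15:101266596-101266845, plus strand): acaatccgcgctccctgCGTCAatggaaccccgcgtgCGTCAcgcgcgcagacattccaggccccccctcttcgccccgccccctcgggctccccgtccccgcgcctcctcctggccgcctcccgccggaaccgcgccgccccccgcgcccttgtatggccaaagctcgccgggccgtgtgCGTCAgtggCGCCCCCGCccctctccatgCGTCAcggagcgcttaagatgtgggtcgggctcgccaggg
Dusp1 (chr17:26508520-26508722, minus strand): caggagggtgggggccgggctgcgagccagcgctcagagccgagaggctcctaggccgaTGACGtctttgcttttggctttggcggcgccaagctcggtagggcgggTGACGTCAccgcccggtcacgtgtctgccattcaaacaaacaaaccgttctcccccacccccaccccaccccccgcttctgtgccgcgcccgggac

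The *Nr4a1* window held 4 CRE cores, at -233, -213, -69 and -40 from the start site, and an EGR motif at -60. That of *Dusp1* held a whole CRE from -143 to -136. The *Egr2* window, which belongs to an internal start site, was chosen for display because it held a CArG box, between -72 and -63. The window at the gene's outermost start held neither a CArG box nor a CRE core. The window of *Fos* held a TATA box at -33. A gene was counted when any of its windows held the letters, so *Egr2* counted for the CRE core and the CArG box through internal start sites alone. The windows of *Nr4a1* and *Dusp1* also belonged to internal start sites. These lay 12577 bases (*Nr4a1*) and 53656 bases (*Dusp1*) from the outermost start of the gene as counted. A CRE core was present in 6 of the 7 members with a window, against 19.8% of 27025 genes with a window in the table and 28.2% of the 12330 of these that were tested. A whole CRE was found in 1 of 7 members (1.77% of all genes, 2.82% of tested genes), a CArG box in 1 (1.62% and 1.44%), an EGR motif in 2 (5.33% and 9.68%), a TATA box in 1 (14.3% and 8.82%) and the AP-1 motif in 0 (7.82% and 6.09%). Only the 250 bases before each start site were searched, so an element farther upstream was not counted. A window without a CArG box therefore does not show that the gene lacks one. These are matches of letters and not measured binding sites.

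*Nr4a1* was higher and *Egr2* lower in BLM+HBO by the study's thresholds (unadjusted P under a limit of 0.05 and a fold change over 1.5), and the other 8 members did not pass them. In all, 1 member was called higher, where 3.4% of the tested genes were, and 1 lower, where 2.89% were. By either direction 2 of 10 members were called against 6.29% of all genes (1098 of 17465). After Benjamini-Hochberg adjustment over all tested genes, edgeR's quasi-likelihood test called 0 members and 0 genes (0%), with 0.423 as the lowest adjusted P, whereas 1861 genes (10.7%) had an unadjusted P below 0.05, 3 of them members. DESeq2 called 128 genes after adjustment and limma 0, and neither called a member. Of the members, 4 had a positive and 6 a negative log2 fold change, and the median was -0.07 against 0.01 over all tested genes.

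**Figure D1:**
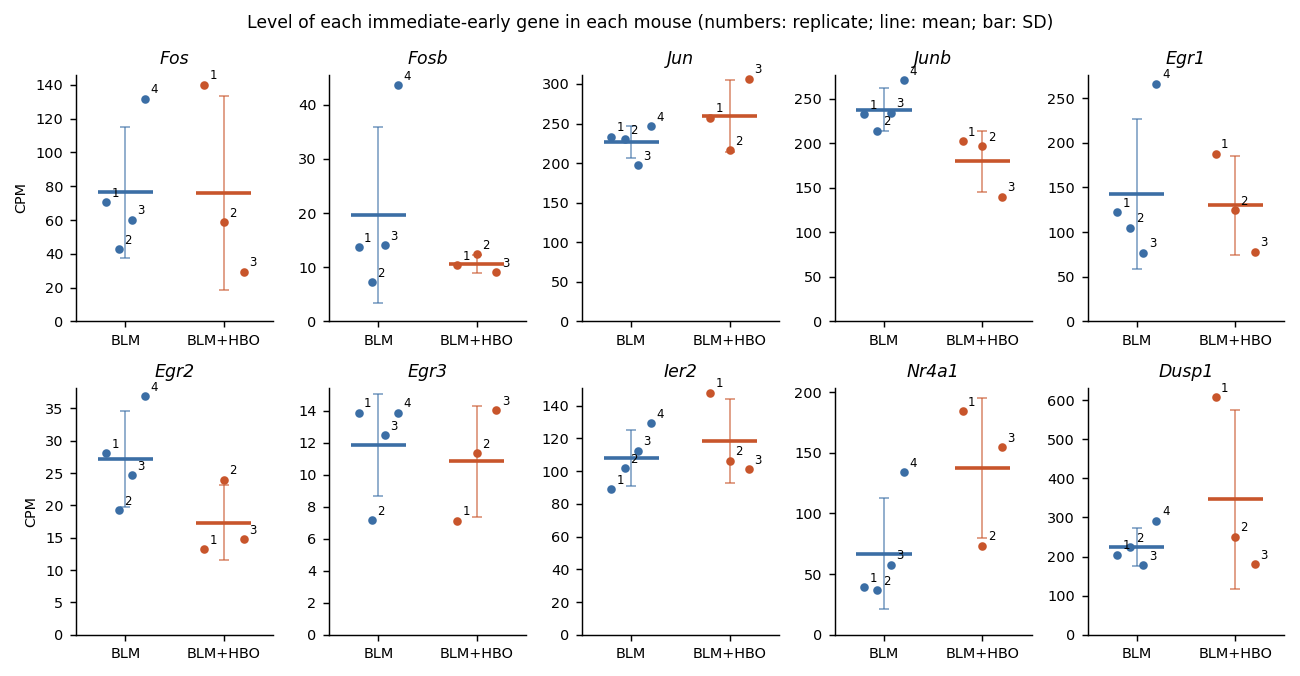
Level of each of the 10 genes in each mouse, in CPM on a linear axis from 0, with the replicate number beside each point, the group mean as a line and the SD as a bar (BLM, n = 4; BLM+HBO, n = 3). BLM 4 was the highest BLM mouse in all 10 panels, and only the *Junb* panel shows 2 groups that do not overlap.

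*Fos* (chr12:85473890-85477273, plus strand), encoding the c-Fos partner of the AP-1 dimer, was measured at 70.7, 42.7, 60.1 and 132 CPM in BLM and at 140.0, 58.6 and 29.5 CPM in BLM+HBO. The highest and the lowest mouse were both in BLM+HBO, and the groups overlapped. The means were 76.3 ± 38.7 (SD, n = 4) and 76.1 ± 57.3 CPM (SD, n = 3). In the fit the log2 fold change was -0.01 (SE 0.50, 95% interval -1.12 to 1.11), which leaves room for a difference of more than 2-fold either way, with an edgeR adjusted P of 0.997.

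*Fosb* (chr7:19302696-19310051, minus strand), encoding a Fos relative that also dimerises with Jun proteins, had 13.7, 7.21, 14.1 and 43.5 CPM in BLM and 10.4, 12.4 and 9.07 CPM in BLM+HBO. BLM 4 alone stood above the other 6 mice, which lay within 7.21 and 14.1 CPM. The fitted log2 fold change was -0.89 (SE 0.51, 95% interval -2.03 to 0.25, edgeR adjusted P = 0.558). It was -0.14 without BLM 4. BLM held the wide spread, with a coefficient of variation of 82.8% against 15.8% in BLM+HBO.

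*Jun* (chr4:95049034-95052222, minus strand), encoding c-Jun, the main DNA-binding partner of the Fos proteins, was measured at 233, 230.0, 198 and 246 CPM in BLM and at 257, 216 and 307 CPM in BLM+HBO. The groups overlapped, with BLM+HBO 3 the highest mouse. This gave a log2 fold change of 0.20 (SE 0.14, 95% interval -0.12 to 0.51, edgeR adjusted P = 0.631). This was the narrowest interval of the list, and its upper end lay below the 1.5-fold limit. Over 232 exon bases *Jun* overlaps *Junos* on the other strand, and the counting did not use strand.

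*Junb* (chr8:84976910-84978718, minus strand), encoding JunB, a weaker activator that can hold back c-Jun, had 233, 214, 234 and 271 CPM in BLM and 202, 197 and 140.3 CPM in BLM+HBO. Every BLM+HBO mouse was below every BLM mouse, and *Junb* was the only member whose groups did not overlap, as was the case for 8.77% of all tested genes. The log2 fold change was -0.40 (SE 0.15, 95% interval -0.74 to -0.07, edgeR adjusted P = 0.435). The means of 238 ± 23.8 (SD, n = 4) and 179.9 ± 34.4 CPM (SD, n = 3) were 1.32-fold apart in the fit, so the difference did not reach the fold limit.

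The fitted values of *Jun* and *Junb* lay on opposite sides of 0. The ratio of *Junb* to *Jun* CPM, which was formed after the values were seen and was not tested, was 0.997, 0.931, 1.19 and 1.10 in BLM and 0.787, 0.912 and 0.458 in BLM+HBO. The ratios did not overlap, though BLM 2 and BLM+HBO 2 were close. The ratio of *Fosb* to *Fos* ranged from 0.169 to 0.330 in BLM and from 0.0741 to 0.307 in BLM+HBO and overlapped.

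*Egr1* (chr18:34859823-34864984, plus strand), encoding a zinc-finger factor that binds GC-rich promoters, was measured at 122, 105, 77.0 and 266 CPM in BLM and at 187, 124 and 78.0 CPM in BLM+HBO. BLM 4 and BLM+HBO 1 were the highest of their groups, and the groups overlapped almost entirely. In the fit the log2 fold change was -0.14 (SE 0.41, 95% interval -1.06 to 0.79), with an edgeR adjusted P of 0.932.

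*Egr2* (chr10:67535475-67542188, plus strand), encoding the family member known from myelin, macrophage and T cell gene programmes, had 28.1, 19.3, 24.7 and 36.9 CPM in BLM and 13.3, 24.0 and 14.7 CPM in BLM+HBO. BLM+HBO 1 and BLM+HBO 3 were below every BLM mouse, while BLM+HBO 2 was above BLM 2. The level was lower in BLM+HBO, at 17.3 ± 5.81 (SD, n = 3) against 27.2 ± 7.40 CPM (SD, n = 4), with a log2 fold change of -0.65 (SE 0.26, 95% interval -1.23 to -0.07, edgeR adjusted P = 0.441). Leaving out any of 4 mice (BLM 1 and 4, BLM+HBO 1 and 3) ended the call, with values between -0.64 and -0.47.

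*Egr3* (chr14:70077203-70082614, plus strand), encoding a close relative that restrains T cell activation together with Egr2, was measured at 13.9, 7.16, 12.5 and 13.9 CPM in BLM and at 7.13, 11.3 and 14.1 CPM in BLM+HBO. BLM 2 and BLM+HBO 1 were low and the other 5 mice were alike, so the groups overlapped. The fitted log2 fold change was -0.12 (SE 0.29, 95% interval -0.76 to 0.52), with an edgeR adjusted P of 0.910.

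The EGR genes did not share an order of mice. BLM+HBO 1 was the highest of its group for *Egr1* and the lowest of all 7 mice for *Egr2* and *Egr3*. The ratio of *Egr2* to *Egr1* CPM was 0.0707 in that mouse and lay between 0.139 and 0.320 in the other 6.

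*Ier2* (chr8:84661331-84662854, minus strand), encoding a small nuclear protein induced by growth factors, had 88.9, 102, 112 and 129 CPM in BLM and 148, 106 and 101 CPM in BLM+HBO. BLM+HBO 1 was above all other mice, and the remaining BLM+HBO values fell inside the BLM range. This gave a log2 fold change of 0.13 (SE 0.17, 95% interval -0.24 to 0.51), with an edgeR adjusted P of 0.810.

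*Nr4a1* (chr15:101254269-101274795, plus strand), encoding the orphan nuclear receptor Nur77, which is induced by antigen receptors and cAMP and restrains inflammatory genes in macrophages, was measured at 39.3, 36.9, 57.6 and 134 CPM in BLM and at 184, 73.2 and 155 CPM in BLM+HBO. BLM+HBO 1 and BLM+HBO 3 were above every BLM mouse, while BLM 4 was above BLM+HBO 2. The level was 2.05-fold higher in BLM+HBO, at 137 ± 57.5 (SD, n = 3) against 66.9 ± 45.6 CPM (SD, n = 4), with a log2 fold change of 1.04 (SE 0.45, 95% interval 0.02 to 2.06, edgeR adjusted P = 0.467). Leaving out any of 5 mice (BLM 1, 2 and 3, BLM+HBO 1 and 3) ended the call, with values between 0.77 and 0.97, and without BLM 4 the value was 1.62. With DESeq2 the value was 1.03 and the call was lost as well.

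*Nr4a1* stood apart from *Fos* in BLM+HBO 3, which had the lowest *Fos* and the second highest *Nr4a1* of the 7 mice. The ratio of *Nr4a1* to *Fos* CPM, formed after the values were seen and not tested, was between 0.555 and 1.02 in BLM and was 1.32, 1.25 and 5.23 in BLM+HBO. The ratios did not overlap. Of the 10 ratios formed in this way, this one and that of *Junb* to *Jun* did not overlap between the groups and the other 8 did.

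*Dusp1* (chr17:26505590-26562128, minus strand), encoding a phosphatase that switches off p38 and JNK and is also induced by glucocorticoids, had 205, 224, 178 and 291 CPM in BLM and 607, 250.3 and 180.5 CPM in BLM+HBO. A single mouse, BLM+HBO 1, was above 291 CPM, and the other 2 BLM+HBO mice fell within the BLM range. The log2 fold change was 0.62 (SE 0.36, 95% interval -0.18 to 1.43, edgeR adjusted P = 0.560). Without BLM+HBO 1 it was -0.06. *Dusp1* and *Ergic1* share 11 exon bases on opposite strands.

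**Figure D2:**
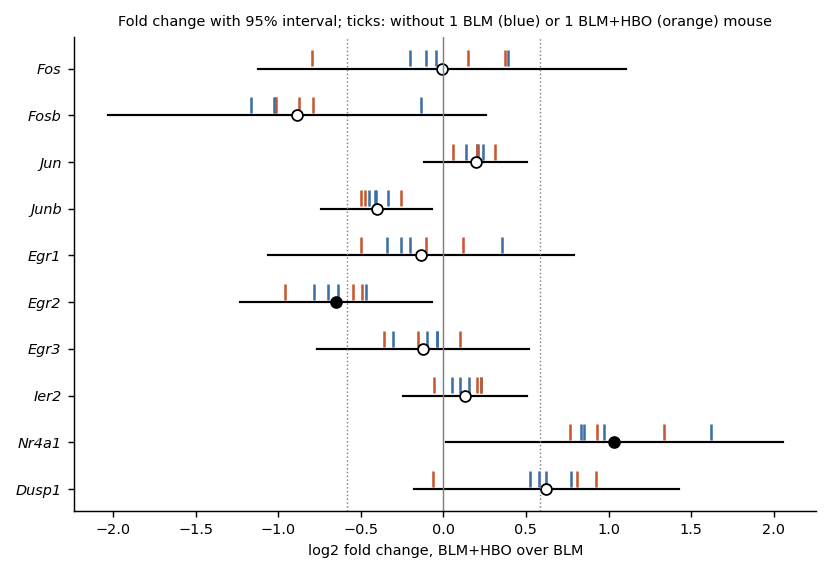
Log2 fold change of each gene (BLM+HBO over BLM; circle, filled where the unadjusted thresholds were passed) with its 95% interval, dotted lines at 1.5-fold, and ticks for the value without 1 BLM (blue) or 1 BLM+HBO (orange) mouse. *Nr4a1* (1.04) and *Egr2* (-0.65) are the filled circles, and the ticks of *Fos*, *Egr1*, *Egr3*, *Ier2* and *Dusp1* lie on both sides of 0.

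Levels were next compared between members per kilobase of exon, as the mean over the 7 mice. *Junb* was the highest at 118 ± 22.4 CPM per kb (SD, n = 7), followed by *Dusp1* (83.5 ± 45.6), *Jun* (75.6 ± 10.9) and *Ier2* (73.8 ± 13.1). *Fos* (32.4 ± 18.3), *Egr1* (30.6 ± 15.1) and *Nr4a1* (27.7 ± 17.0) formed a middle group, and *Egr2* (6.76 ± 2.40), *Egr3* (2.59 ± 0.698) and *Fosb* (2.53, with a range of 1.16 to 6.97) were the lowest. The ranges of each pair of neighbours in this order overlapped, with the exception of *Egr2* and *Egr3*, where the lowest *Egr2* mouse (3.90) was above the highest *Egr3* mouse (3.19). In BLM the order opened with *Junb* (132 ± 13.1) and in BLM+HBO with *Dusp1* (104 ± 69.0), whose range in BLM+HBO was set by 1 mouse.

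The spread between mice of the same group was wide for many members. The pooled within-group SD of log2 CPM had a median of 0.54 over the members and 0.25 over all tested genes. It was 0.88 for *Fos*, 0.84 for *Fosb*, 0.80 for *Nr4a1* and 0.71 for *Egr1*. These 4 members lay above the 90th percentile of all tested genes, where 10% of genes lie by construction. *Dusp1* had an SD of 0.62 and lay at the 88.5 percentile. Among the 500 tested genes nearest in level, *Fos*, *Fosb*, *Egr1*, *Nr4a1*, *Dusp1* and *Egr2* were at or above the 91.6 percentile, and *Nr4a1* was at 100. Against all tested genes, the spread of *Egr3* (0.47) and *Egr2* (0.42) was intermediate within the list, at the 78.9 and 73.9 percentiles. Among genes nearest in level *Egr3* was at the 86.4 percentile.

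Not all members varied so. *Jun* (0.19), *Junb* (0.22) and *Ier2* (0.26) were near the middle of all genes, at the 36.1, 42.7 and 52.4 percentiles. Among the 500 tested genes nearest in level they stood higher, at the 62.8, 68.8 and 79.8 percentiles. From the lowest to the highest BLM mouse, *Jun* differed by 1.25-fold and *Junb* by 1.27-fold, whereas *Fosb* differed by 6.04-fold, *Nr4a1* by 3.63-fold and *Fos* by 3.09-fold. The place of the spread also differed. *Fosb* varied mostly within BLM, *Dusp1* within BLM+HBO (3.36-fold from lowest to highest, against 1.63-fold in BLM), and *Fos* in both. Without BLM 4 only 1 member stayed above the 90th percentile, and without any other single mouse 4 or 5 did.

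**Figure D3:**
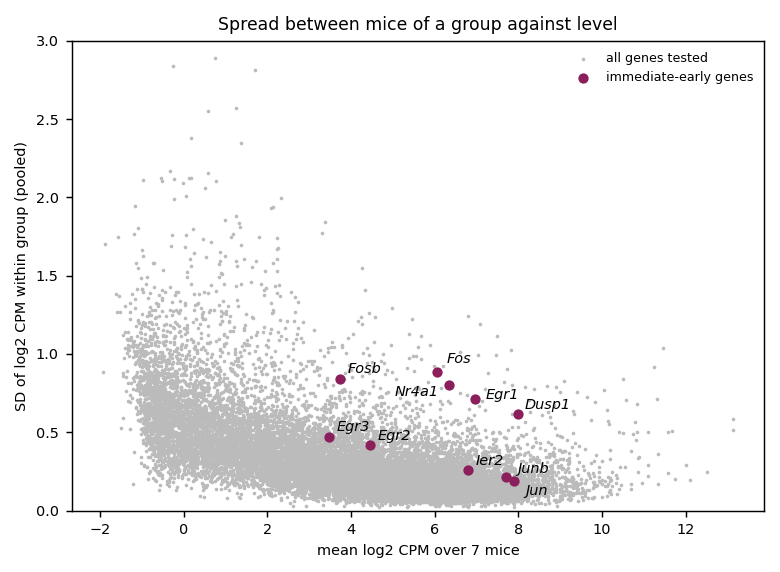
Pooled within-group SD of log2 CPM against mean log2 CPM over 7 mice, for all 17465 tested genes (grey) and the 10 immediate-early genes (purple). *Fos*, *Nr4a1*, *Egr1* and *Dusp1* lie above most genes of their level, while *Jun*, *Junb* and *Ier2* lie within the bulk.

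Many members shared their highest mouse. BLM 4 was the highest BLM mouse for 10 of 10 members, whereas it was the highest for 21.9% of all tested genes. BLM+HBO 1 was the highest of its group for 6 of 10 members (*Fos*, *Junb*, *Egr1*, *Ier2*, *Nr4a1* and *Dusp1*), against 36.7% of all tested genes. Of the 10 members, 4 were highest of all 7 mice in BLM 4, 4 in BLM+HBO 1 and 2 in BLM+HBO 3. The summed level of the list was 1048, 988, 969 and 1564 CPM in BLM and 1756, 1073 and 1028 CPM in BLM+HBO. The sum was therefore high in 1 mouse of each group and between 969 and 1073 CPM in the other 5. BLM+HBO 3 was split, with the highest *Jun* and *Egr3* and the lowest *Fos* and *Junb* of the 7 mice.

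**Figure D4:**
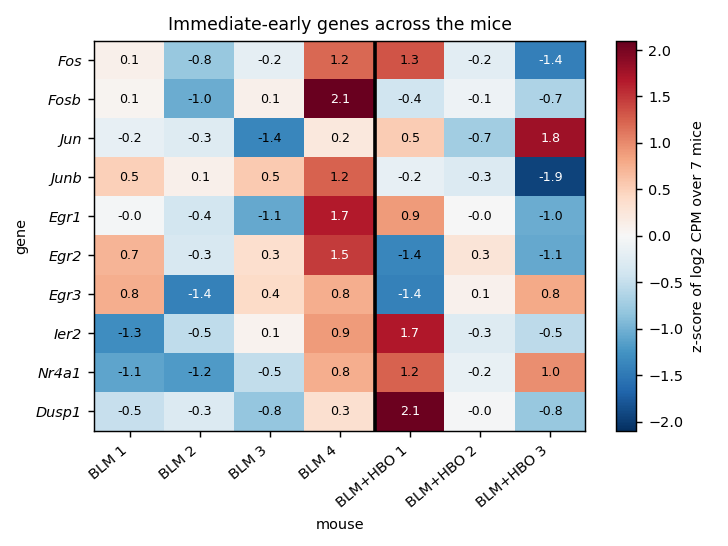
Z-score of log2 CPM over the 7 mice for each gene (rows) and mouse (columns; the black line divides BLM from BLM+HBO), with red above and blue below the gene's mean. The BLM 4 column is positive for all 10 genes (mean 1.06), whereas BLM+HBO 1 runs from -1.42 for *Egr3* to 2.07 for *Dusp1*.

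Levels of some other genes moved with 1 or both of these mice, and their part in the members' values was not tested. For comparison, 21.9% of all tested genes were highest in BLM 4 within BLM and 36.7% in BLM+HBO 1 within BLM+HBO. By the unadjusted thresholds, 3.4% were called higher and 2.89% lower in BLM+HBO. All 6 T cell markers were highest in BLM 4 among the BLM mice and in BLM+HBO 1 among the BLM+HBO mice. Their sum ranged from 37.8 to 59.0 CPM in BLM and from 41.1 to 91.2 CPM in BLM+HBO, and no marker was at 0. Of the 6 B and plasma cell markers, 5 were highest in BLM 4 and 4 in BLM+HBO 1, with a sum of 352 to 769 CPM in BLM and 239 to 499 CPM in BLM+HBO. In BLM+HBO the sum was highest in mouse 2 (499 CPM) and was 323 CPM in mouse 1. Of these 6 markers 4 were called higher in BLM+HBO, with a median log2 fold change of 0.91, although the mean sum was lower there (353 against 503 CPM). Of the 9 heart muscle markers tested, 7 were highest in BLM 4 and 7 in BLM+HBO 1, and 8 were called higher in BLM+HBO. The sum over all 10 listed heart muscle markers ranged from 63.2 to 175 CPM in BLM and from 155 to 644 CPM in BLM+HBO. The 5 neutrophil markers tested were all highest in BLM+HBO 1 within its group. The sum over the 6 listed was 470.1 CPM there and 94.7 to 217 CPM in the other 6 mice. The neutrophil markers did not follow BLM 4, which was the highest BLM mouse for 1 of the 5 tested. The neutrophil sum was 167 CPM in BLM 4, below BLM 1 (204 CPM) and BLM 3 (217 CPM). Of 6 endothelial cell markers, 4 were highest in BLM 4 and 2 in BLM+HBO 1 within their groups. For the 6 alveolar type 1 cell markers these counts were 3 and 1. Between the groups, fibroblast markers, of which 5 of 6 were called lower, summed to between 5888 and 9714 CPM in BLM and between 1887 and 6331 CPM in BLM+HBO.

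The 5 tested genes outside the list whose pattern over the 7 mice was most like the members' mean z-score were *4930520O04Rik*, *Mtif2*, *Mefv*, *Zfp263* and *Gm10521*. Their mean absolute z-score difference from it was 0.33, 0.34, 0.36, 0.37 and 0.37, against a median of 0.89 over all tested genes and a range of 0.37 to 0.84 over the members themselves. None passed the thresholds, with edgeR adjusted P between 0.848 and 0.995. The first was below 1 CPM in every mouse. *Mefv*, encoding pyrin, a sensor protein of neutrophils and monocytes, had 2.59, 1.92, 2.36 and 5.37 CPM in BLM and 6.39, 2.78 and 1.61 CPM in BLM+HBO. Its high mice were BLM 4 and BLM+HBO 1. The 5 genes were picked for likeness to the members, so their small differences and shared high mice follow from the choice.

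Other genes of the immediate-early class were lower or did not pass. In these and the following lists, higher and lower mean past the unadjusted thresholds, and 0 genes passed after adjustment. Of all tested genes, 3.4% were called higher and 2.89% lower, and 8.77% did not overlap between the groups. Of 61 further genes in 3 lists, 60 were tested, of which 0 were called higher and 6 lower. The groups did not overlap for 7 of the 60, and the median log2 fold change was -0.15. BLM 4 was the highest BLM mouse for 22 of the 60, or 36.7%.

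Among 18 other immediate-early transcription factors, 1 was lower. *Myc*, which drives growth and ribosome genes, had 39.3, 30.4, 42.9 and 26.5 CPM in BLM and 19.1, 24.6 and 14.3 CPM in BLM+HBO. These values did not overlap (log2 fold change -0.85, SE 0.22, edgeR adjusted P = 0.423).

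Of 31 signalling and RNA-decay regulators, 2 were lower. *Gadd45g*, encoding a stress sensor that activates p38 and JNK kinases upstream, had 91.7, 101, 136 and 90.4 CPM in BLM and 42.0, 62.0 and 49.99 CPM in BLM+HBO. In the fit the log2 fold change was -1.03 (SE 0.18, edgeR adjusted P = 0.423). *Socs3*, the feedback inhibitor of IL-6 signalling, had 235, 220.1, 269 and 247 CPM in BLM and 92.9, 192 and 86.5 CPM in BLM+HBO, with a fitted difference of -0.97 on the log2 scale (SE 0.26, edgeR adjusted P = 0.423). Neither gene overlapped between groups.

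Of 11 genes for secreted factors, with *Ptgs2* among them, 3 were lower, and the median over the list was -0.59. *Ccl2*, the chemokine that draws monocytes, had 60.8, 45.9, 34.2 and 37.2 CPM in BLM and 3.41, 23.2 and 5.51 CPM in BLM+HBO, without overlap (log2 fold change -2.06, SE 0.56, edgeR adjusted P = 0.423). *Ereg*, encoding the EGF receptor ligand epiregulin, was lower by a log2 fold change of -1.83 (SE 0.60, edgeR adjusted P = 0.423), and *Cxcl1*, a neutrophil chemokine, by -1.66 (SE 0.57, edgeR adjusted P = 0.423). Both overlapped between groups, and *Cxcl1* was no longer called without BLM+HBO 3 (-1.39). For these secreted factors, markers of monocytes and macrophages moved as well, with 3 of 6 called lower and a sum of 971 to 1452 CPM in BLM and 601 to 963 CPM in BLM+HBO, and their part was not tested.

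**Figure D5:**
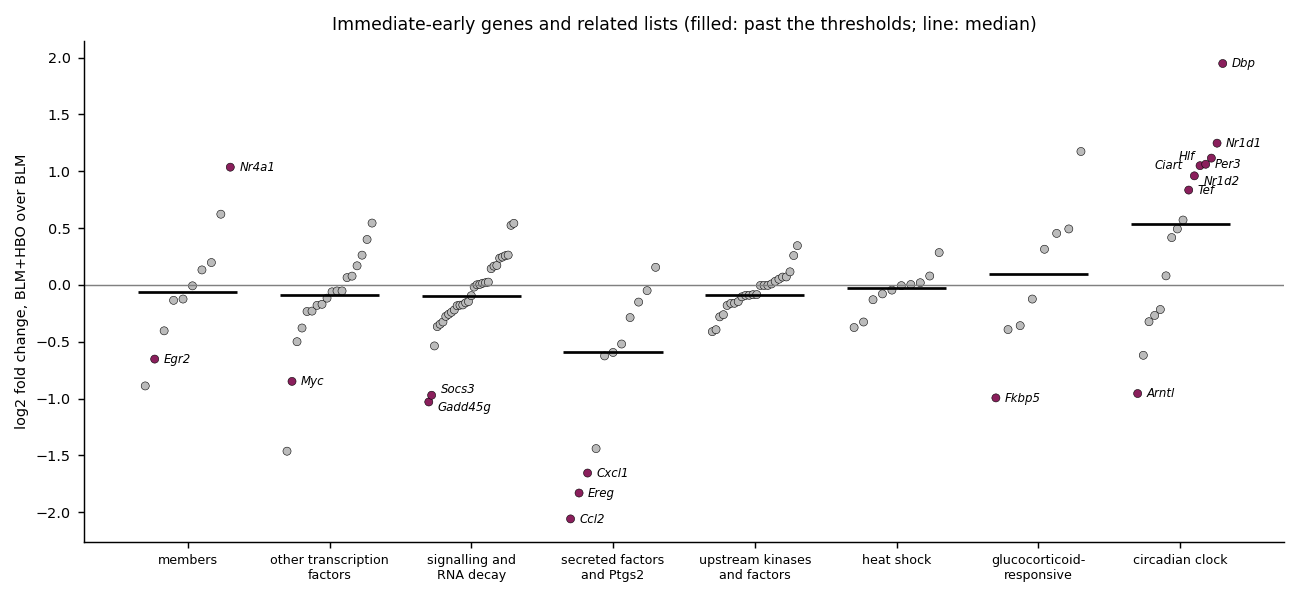
Log2 fold change (BLM+HBO over BLM) of every tested gene of the members, the other immediate-early genes and 4 related lists, with genes past the unadjusted thresholds in purple and named, and the median of each list as a line. The secreted factors (median -0.59) and the circadian clock genes (0.53) lie farthest from 0.

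The genes that carry signals to immediate-early promoters were examined next. Of 24 upstream kinases and promoter-bound factors, 0 passed the thresholds and 1 had an unadjusted P below 0.05, which was *Rps6ka3*, encoding the kinase RSK2 (log2 fold change -0.39, SE 0.16, edgeR adjusted P = 0.447). The median was -0.09, and 16 of the 24 log2 fold changes were negative. Their summed level was between 1980.1 and 2069 CPM in BLM and between 1939 and 1946 CPM in BLM+HBO, so the sums did not overlap; the difference of the sums was not tested.

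Heat shock genes, which respond to protein stress, gave 0 calls among 10 and 0 with an unadjusted P below 0.05, and the smallest P was that of *Hspb1* (log2 fold change -0.33, SE 0.15, edgeR adjusted P = 0.492). Of 8 glucocorticoid-responsive genes, a class to which *Dusp1* also belongs, only *Fkbp5* was called, and it was lower (log2 fold change -0.99, SE 0.40, edgeR adjusted P = 0.442). This call was also lost when BLM 1 (-0.73) or BLM 2 (-0.92) was left out, and likewise for BLM+HBO 1 (-0.75) and BLM+HBO 3 (-0.86).

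Circadian clock genes were the related list with the most calls, 7 higher and 1 lower of 16, with a median log2 fold change of 0.53. *Dbp*, a clock output factor, had 25.7, 24.3, 15.5 and 5.58 CPM in BLM and 117, 50.1 and 39.2 CPM in BLM+HBO, without overlap (log2 fold change 1.95, SE 0.49, edgeR adjusted P = 0.423). *Nr1d1*, encoding the repressor REV-ERBα, was higher by 1.25 on the log2 scale (SE 0.26), *Per3* by 1.06, *Ciart* by 1.05 and *Tef* by 0.83 (0.58 and no longer called without BLM+HBO 1). BLM 4, which had the highest level of each member within BLM, had the lowest *Dbp*, and BLM+HBO 1 had the highest. The hour at which each lung was taken is not given in the sources used here, and a link between the clock genes and the members was not tested.

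Many members also share features that the list of names did not use. Most are compact, with a median span over the list of 5287 bases in the table against 19630 bases over all tested genes. The exceptions are *Nr4a1* (20527 bases, 51.1 percentile of tested genes) and *Dusp1* (56539 bases, 77.4 percentile). Of the 10, 8 span less than 10 kb (32.2% of tested genes), and *Jun*, *Junb* and *Ier2* consist of 1 exon block (8.96% of tested genes). *Junb* and *Ier2* lie on the same chromosome, 314056 bases apart, and only *Junb* had groups that did not overlap.

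The pentamer ATTTA in the 3′ UTR is the core of elements that mark short-lived transcripts. Its density, counted in the longest coding transcript of GENCODE vM21, had a median of 2.94 per kb in the members and 1.26 per kb over 14606 tested genes. *Dusp1* (5.77 per kb), *Nr4a1* (5.49) and *Fos* (4.89) were in the top 10% of genes, and *Junb* (4.10) was just below. *Ier2* held 0 and *Fosb* 0.466 per kb. *Dusp1*, *Nr4a1* and *Fos* were also among the 5 members with the widest spread between mice of a group. The rest of those 5 were *Fosb*, which has a low density, and *Egr1* (1.64 per kb). *Junb* and *Jun* (3.24 per kb), which come next in density, had the narrowest spread of the list. A link between density and spread was not tested.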

How the data were processed

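Total RNA of lung tissue from 7 mice was made into libraries with a NEBNext Ultra kit and sequenced as read pairs. The authors trimmed the reads and mapped them to GRCm38 with HISAT2 (2.2.0 per the processing notes). They made the deposited raw counts per gene with featureCounts at default settings, without strand and without normalization. The featureCounts version was 2.2.0 per the processing notes, whereas the study's methods give another. The annotation release is not given in the sources used here. All value columns were assigned to a mouse.

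Genes with low counts were removed by filterByExpr with a minimum count of 10 and a minimum total of 15, library sizes were recomputed, and TMM factors (0.964 to 1.04) were applied. BLM and BLM+HBO were compared over the 7 mice with the quasi-likelihood test of edgeR 4.0.16 (R 4.3.3; common biological coefficient of variation 0.222). Calls used the study's limits, an unadjusted P under a limit of 0.05 and a fold change over 1.5, and P was also adjusted over all genes tested. Within-group SDs used log2 CPM with a prior count of 2. The test was tested on simulated data. No 2 libraries of a group agreed within counting noise (chi-square of at least 22.1 per gene).

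The members and all gene lists were chosen with earlier results of these data known. The rule for naming genes took all members, up to 5 called genes of each other list by smallest P or else the gene with the smallest P, and the 5 genes with the pattern most like the members. Pentamers and gene overlaps came from GENCODE vM21 and promoters from RefSeq, searched over 250 bases with Python 3.11.15. Alternatives were RLE and upper-quartile factors, DESeq2 1.42.0, limma 3.58.1, other filters and limits, robust empirical Bayes, a replicate block and leaving out each mouse in turn. A list of partners of AP-1 and EGR proteins is counted among the related lists but is not reported here.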

Additional observations from a re-analysis of the deposited data

Results flagged for a closer look

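In groups of 4 mice, a value whose gap to its neighbour, as a share of the group's range, exceeded Dixon's 95% critical value was marked as far from the others, and 2 of 32 sets of BLM values examined were. Chance marks about 1 in 20. For *Egr3* the ratio was 0.835, because BLM 2 had 2.86 log2 CPM while BLM 1, BLM 3 and BLM 4 had 3.80, 3.65 and 3.81. For the total count per library the ratio was 0.971, because BLM 4 had 19002242 counts and the other 3 BLM libraries had between 18436336 and 18452895. BLM 4 is also the BLM mouse with the highest level of all 10 members, and CPM is scaled by library size. Whether the totals bear on the members was not tested.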

How the results depend on the processing

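The calls among the members depended on the mice. Leaving out each mouse in turn gave 0 to 2 called members (2 with all mice), and 0 without BLM 1 or BLM+HBO 1. There was 1 with DESeq2 and with robust empirical Bayes, 4 with no filter on low counts, 0 at a P limit of 0.01 and 1 at a fold limit of 2. After adjustment 1 member, *Nr4a1* (adjusted P 0.0495), was called with no filter, and 0 under every other alternative run. The median log2 fold change of the members ran from -0.28 without BLM+HBO 1 to 0.23 without BLM 4. The number with a spread above the 90th percentile ran from 1 (without BLM 4) to 5.

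Some genes that did not pass turned sign. Over the sets with 1 mouse left out, the log2 fold change ran from -0.79 to 0.39 for *Fos* (positive without BLM 4 or BLM+HBO 2 or 3), from -0.50 to 0.36 for *Egr1* (positive without BLM 4 or BLM+HBO 3), from -0.36 to 0.10 for *Egr3*, from -0.059 to 0.23 for *Ier2*, from -0.061 to 0.92 for *Dusp1* and from -0.49 to 0.64 for *Mefv* (these 4 with the opposite sign without BLM+HBO 1). It ran from -0.18 to 0.16 for *4930520O04Rik*, from -0.078 to 0.014 for *Mtif2*, from -0.016 to 0.030 for *Zfp263* and from -0.36 to 0.047 for *Gm10521* (positive without BLM 4, and the first also without BLM+HBO 2). With upper-quartile factors *Fos* was 0.019 and *Zfp263* 0.022, and with a filter of 1 CPM *Zfp263* was 0.0020. The cause was not tested.

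Over all genes, leaving out each mouse gave 659 to 1914 calls (706 with BLM 1 left out, 659 with BLM+HBO 1 and 1914 with BLM+HBO 2), and 0 to 267 after adjustment (267 with BLM+HBO 2 left out, 2 with BLM+HBO 3). There were 1940 calls with no filter, 319 at a P limit of 0.01 and 509 at a fold limit of 2. After adjustment there were 128 with DESeq2 and 387 with no filter. The other immediate-early genes, with 6 calls, gave 6 to 14 when 1 mouse was left out (14 without BLM+HBO 2), and 4 at a P limit of 0.01 and 4 at a fold limit of 2. The related lists gave 6 at a P limit of 0.01 and 5 at a fold limit of 2, against 11.

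The replicate numbers of the labels were not taken to pair the mice. Deviations of same-numbered mice correlated at -0.01, -0.07 and 0.16, and those of mice with other numbers at -0.18 to 0.17. So few values cannot settle whether mice were paired. With the replicate block, which drops BLM 4 from the contrast as it has no partner, 1 member was called, *Nr4a1* (1.55), *Egr2* (-0.50), *Ereg* (-1.90) and *Cxcl1* (-1.19) were no longer called, and the members' median was 0.19. Under the block *Fos* was 0.16, *Egr1* 0.29, *4930520O04Rik* 0.17, *Mtif2* 0.014, *Zfp263* 0.030 and *Gm10521* 0.041, and 1258 genes were called.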
